A study of Mus musculus with 6 samples.

Results

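Expression of 10 genes of insulin and insulin-like growth factor (IGF) signalling was examined in the sciatic nerve of mice that lack Srebf-1c. The genes were Igf1, Igf2, Insr, Igf1r, Irs1, Irs2, Pik3r1, Akt1, Akt2 and Foxo1. They were given by name and chosen for their place in the pathway, with earlier results of these data known. All 10 were measured among 22180 genes on the arrays. Whole sciatic nerve, the large peripheral nerve of the leg, came from 10-month-old Srebf-1c KO mice and from wild-type (WT) relatives of the same litters, with 3 samples per genotype and 1 Affymetrix array per sample. The labels name no treatment and no second allele, and they do not say how the KO was made or whether each sample came from a different mouse. What the p-values measure is therefore the spread among these 6 samples, some of which could be technical. A whole nerve also holds many cell types, so fewer cells of a type and less RNA per cell cannot be told apart.

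Insulin, IGF-1 and IGF-2 bind 2 related receptor tyrosine kinases, encoded by Insr and Igf1r. The active receptors phosphorylate the adaptor proteins IRS-1 and IRS-2, which recruit phosphoinositide 3-kinase through its regulatory subunit p85α, the product of Pik3r1. The lipid made by that kinase brings the AKT kinases to the membrane, and AKT in turn phosphorylates FoxO1 and keeps this transcription factor out of the nucleus. SREBP-1c, a product of Srebf1, lies downstream: in liver, insulin raises its transcription and processing through AKT and mTORC1. A link in the other direction is also known from liver, where FoxO factors raise Irs2 transcription and SREBPs lower it. In peripheral nerve, IGF-1 is known as a survival and growth signal for Schwann cells, and insulin receptor signalling as an influence on myelin.

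Promoter sequences are shown for the adaptor genes Irs1 and Irs2. SREBPs are helix-loop-helix proteins that can bind the E-box CACGTG as well as sterol regulatory elements. The 2 genes were also picked with their array values seen. A different response of the 2 to the KO was not established (Irs2 minus Irs1, exact two-sided permutation p = 0.1, adjusted p = 0.4). The sequences are from RefSeq on build GRCm38.p6 and hold the 250 bases before the annotated start, read 5′ to 3′ on the strand of the gene, with the E-box in capitals. The Irs1 window is chr1:82291440-82291689 on the minus strand and the Irs2 window is chr8:11008930-11009179 on the minus strand.
Irs1: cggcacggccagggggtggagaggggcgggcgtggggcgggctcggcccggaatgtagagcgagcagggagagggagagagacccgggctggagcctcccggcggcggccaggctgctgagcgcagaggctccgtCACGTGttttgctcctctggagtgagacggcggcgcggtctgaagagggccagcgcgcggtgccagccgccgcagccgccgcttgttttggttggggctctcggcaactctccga
Irs2: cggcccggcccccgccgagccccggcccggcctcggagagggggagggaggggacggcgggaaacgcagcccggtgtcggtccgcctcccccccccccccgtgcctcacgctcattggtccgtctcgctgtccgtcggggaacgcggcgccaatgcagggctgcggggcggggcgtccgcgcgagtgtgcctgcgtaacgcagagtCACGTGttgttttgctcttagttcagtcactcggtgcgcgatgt

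The E-box begins 115 bases before the start in Irs1 and 44 bases before it in Irs2. It lies in both genes within the same run of 10 bases, gtCACGTGtt. Promoter windows were found for 9 of the 10 genes, 17 windows in all, and these 2 were the windows among them with CACGTG, which occurs in 6.02% of the 32851 windows of the table. The 10-base run was itself taken from the match of the Irs1 and Irs2 windows, so its share is no test of them. It occurs in 23 of the 32851. The sterol regulatory element TCACNCCAC, searched on both strands, was in none of the 17 windows and in 1.05% of all windows. The FoxO site was searched on both strands only in the form GTAAACA, which was in 1 of the 17, that of Akt1, and in 3.17% of all. Other forms of the sterol regulatory element and of the FoxO site, and bases outside these windows of 250, were not searched. Their absence cannot be read from these counts. Another run of 10 bases shared by the Irs1 and Irs2 windows, tgttttgctc, overlaps the end of the E-box in Irs1 and follows it in Irs2. None of the 17 windows held 2 of the searched motifs, so an overlap between them could not occur. A match describes letters in a window and says nothing of binding.

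The values are probe set intensities, normalised by the authors across arrays and used here as log2. The targeted gene, Srebf1, stood at 9.53, 9.55 and 9.70 in WT and at 8.11, 8.06 and 8.04 in KO, a fall of 1.52 on the log2 scale (SE 0.11, limma adjusted p = 0.0497), and no other gene passed at 0.05. This call was lost with any 1 array left out (adjusted p of 0.255 to 0.764 in limma). The position of its probes against the deletion is not given, so the gene checks the labels only in part. Median intensity per array was 115.5 to 118 in WT and 118.9 to 122.6 in KO. Myelin and Schwann cell genes, of which 13 of 16 were measured, were bright on every array, with a summed intensity of 49980 to 62690 in WT and 55250 to 60400 in KO. The number of arrays limits the precision.

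None of the 10 genes differed between the genotypes beyond the spread of the arrays. In limma 0 of 10 passed an adjusted p of 0.05 (smallest adjusted p = 0.867), against 0.00451% of all genes. At an unadjusted p under 0.05, 0 of 10 passed, against 5.83% of all genes. The criterion of the study, an unadjusted p under 0.05 with at least a 1.5-fold change, was applied to the limma p. By it 0 of 10 passed, against 1.19% of all genes (0.64% higher and 0.555% lower in KO). Over all genes that was 142 higher and 123 lower. With quantile normalization repeated it was 122 higher and 142 lower, and with the arrays brought to 1 median 101 higher and 189 lower. With the unmoderated test named in the series it was 75 higher and 63 lower, and 0 of 10 members passed. The KO and WT values did not overlap in 0 of 10 genes, against 12.3% of all genes (4.08% higher and 8.21% lower in KO). A count of 0 in 10 is near each of these background shares. The mean was higher in KO for 5 genes and lower for 5. Log2 fold changes, always KO minus WT, ran from -0.32 for Igf2 to 0.29 for Foxo1, and their median was -0.04, against -0.03 over all genes tested.

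A p that misses the threshold does not show equal levels, so the 95% intervals of the fold changes matter here. For 6 of the 10 genes, Insr, Igf1r, Irs2, Pik3r1, Akt1 and Akt2, the interval lay inside a 1.5-fold change in either direction (0.58 on the log2 scale). For Igf1, Igf2, Irs1 and Foxo1 it reached past 1.5-fold on at least 1 side. The narrowest was that of Akt1 and the widest that of Igf1.

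**Figure D1:**
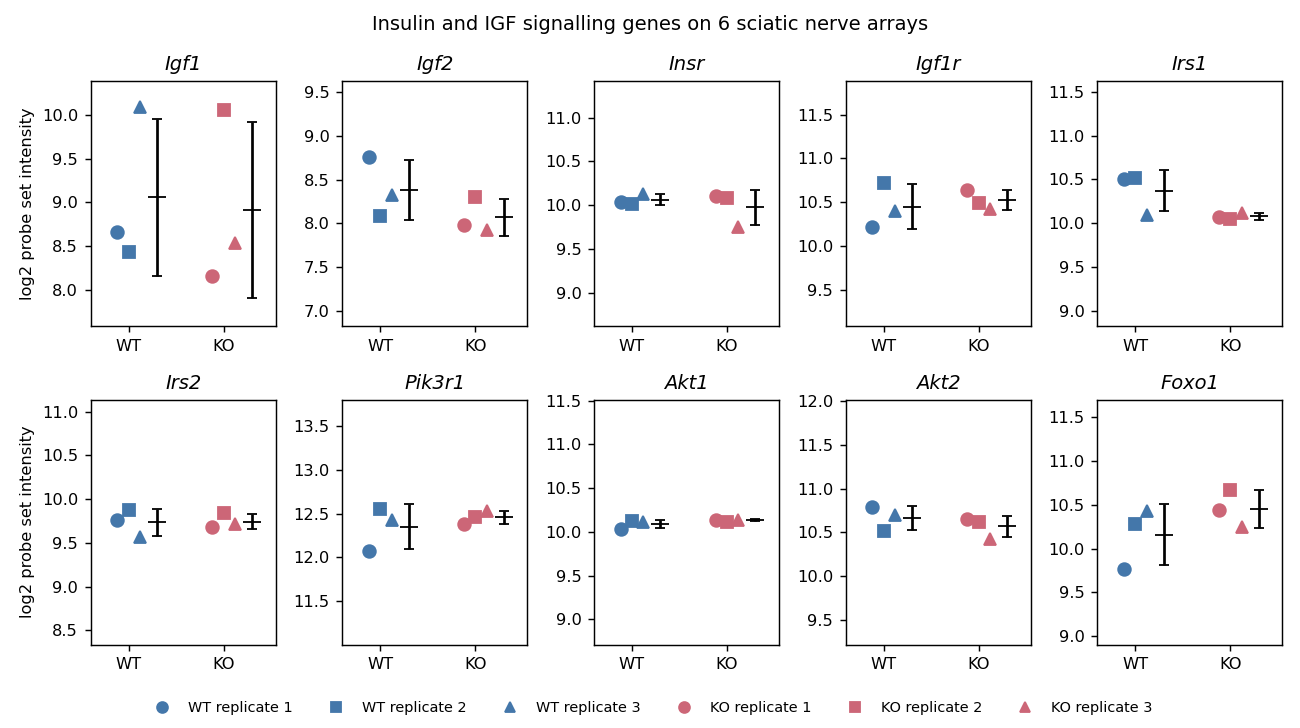
Log2 probe set intensity (vertical axis, every panel spanning the same number of log2 units) of the 10 genes on each of 3 WT and 3 KO arrays. Symbols are single arrays, and the bar beside them is the mean ± SD (n = 3). Groups overlap in every panel, and Igf1 is high on WT replicate 3 and KO replicate 2.

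**Figure D2:**
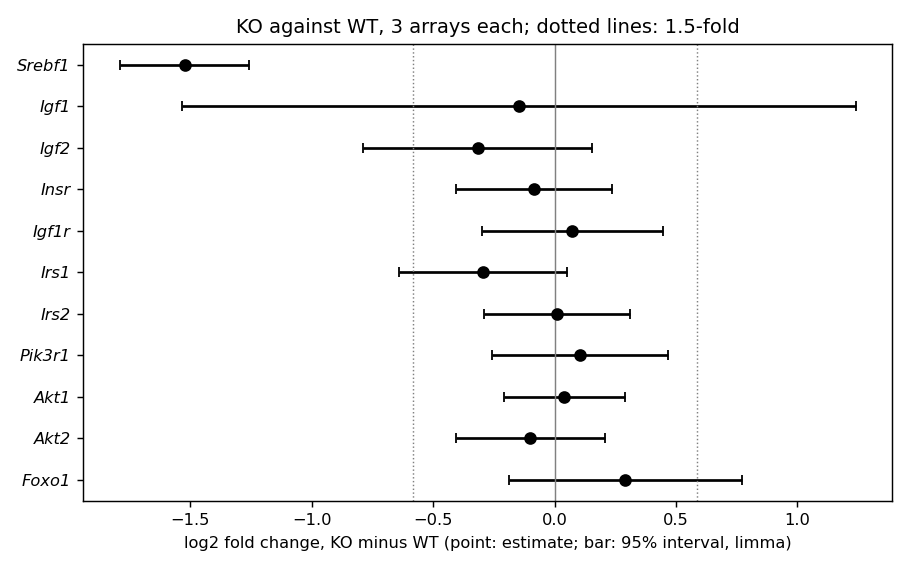
Log2 fold change, KO minus WT (horizontal axis), of Srebf1 and the 10 genes, with 95% intervals from limma (3 arrays per group) and dotted lines at 1.5-fold. The interval of Srebf1 lies wholly below 0, and those of the 10 genes all include 0.

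Among the ligands, Igf1, which encodes the growth factor IGF-1, had by far the widest spread. Its log2 intensity was 8.67, 8.43 and 10.09 in WT and 8.15, 10.06 and 8.53 in KO, with means of 9.06 ± 0.90 and 8.91 ± 1.01 (SD, n = 3). Of each genotype, 1 array stood far above the other 2: WT replicate 3 at an intensity of 1089 and KO replicate 2 at 1065, where the other 4 arrays lay between 285 and 406. The groups overlapped almost fully, and the log2 fold change was -0.15 (95% interval -1.53 to 1.24, limma adjusted p = 0.987). Its sign and size depended on single arrays: it was 0.37 without WT replicate 3, 0.23 without KO replicate 1, 0.04 without KO replicate 3 and -0.72 without KO replicate 2.

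The 2 arrays with high Igf1 were also those with the highest levels of adipocyte genes. Of 17 measured adipocyte genes, 16 were higher on WT replicate 3 and on KO replicate 2 than on each of the other 4 arrays, the exception being Cidea. Leptin, the fat hormone gene Lep, stood at 11.78 on WT replicate 3 and 11.97 on KO replicate 2, against 7.04 to 7.97 on the others. Adiponectin, Adipoq, stood at 9.98 and 10.05, against 6.99 to 7.71. The summed intensity of the 17 genes was 21580, 22300 and 54450 in WT and 24270, 53590 and 17770 in KO, and none of the 17 was at 0 on any array.

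Macrophage genes followed in part. Of 10 measured, 8 were highest on the same 2 arrays, with a summed intensity of 2724, 3063 and 4889 in WT and 2488, 4975 and 3509 in KO. The mannose receptor gene Mrc1 stood at 9.77 and 9.78 there, against 8.06 to 8.99 elsewhere. The skeletal muscle genes did not, since 0 of 20 had this order. Of 10 measured endothelial genes, 5 were highest on these 2 arrays, with a summed intensity of 8991, 10270 and 13040 in WT and 9533, 11650 and 7521 in KO. The endothelial score was 0.37 on WT replicate 3 and 0.16 on KO replicate 2. For 9 of the 10 endothelial genes the mean was lower in KO, against 12624 of all 22180 genes. Over all genes tested, 9.54% had both of these arrays above the other 4. With the adipocyte score of each array (each of the 17 genes centred on its own mean over the 6 arrays on the log2 scale, then averaged) as a covariate, the log2 fold change of Igf1 was 0.11 (limma adjusted p = 0.961). With both arrays left out, an alternative chosen after seeing the data, it was -0.20 (limma adjusted p = 0.804).

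Igf2 encodes IGF-2, a growth factor known for its high expression before birth and its expression from the paternal allele. Its log2 intensity was 8.76, 8.08 and 8.32 in WT and 7.98, 8.31 and 7.92 in KO, with means of 8.39 ± 0.34 and 8.07 ± 0.21 (SD, n = 3). WT replicate 1 was the highest, and KO replicate 2 lay above WT replicate 2, so the groups overlapped. The log2 fold change was -0.32 (95% interval -0.79 to 0.16, limma adjusted p = 0.887), and it shrank to -0.13 without WT replicate 1.

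Of the 2 receptors, Igf1r varied more between arrays than Insr (SD over all 6 arrays of 0.18 and 0.14). Insr, the insulin receptor, stood at 10.03, 10.02 and 10.13 in WT and at 10.10, 10.08 and 9.75 in KO. KO replicate 3 was low, and the other 5 arrays lay between 10.02 and 10.13. This gave a log2 fold change of -0.09 (95% interval -0.41 to 0.24), which turned to 0.03 without KO replicate 3.

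Igf1r, the receptor for IGF-1, stood at 10.22, 10.72 and 10.40 in WT and at 10.64, 10.49 and 10.42 in KO. WT replicates 1 and 2 were the lowest and the highest of the 6 arrays, so all KO values fell within the WT range. Its log2 fold change was 0.07 (95% interval -0.30 to 0.45), and it was -0.04 without WT replicate 1. In both receptor genes the difference was smaller than the spread within at least 1 genotype.

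The adaptor Irs1 came closest to a separation of the genotypes. Its log2 intensity was 10.50, 10.51 and 10.10 in WT and 10.07, 10.04 and 10.12 in KO, with means of 10.37 ± 0.24 and 10.08 ± 0.04 (SD, n = 3). The KO arrays were tightly grouped, WT replicates 1 and 2 lay above all of them, and WT replicate 3 lay among them, just below KO replicate 3. The log2 fold change was -0.29 (SE 0.15, 95% interval -0.64 to 0.05), to 0.815 of the WT level, with an unadjusted p = 0.0828 and an adjusted p = 0.867 in limma. It kept its sign with each array left out in turn, from -0.43 without WT replicate 3 to -0.22 without WT replicate 2. A second, dimmer probe set of Irs1 gave -0.09 ± 0.14 (SE), with values of 6.71, 6.32 and 6.57 in WT and 6.57, 6.37 and 6.40 in KO. The 2 probe sets therefore differ in how far WT and KO stand apart.

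Irs2, the adaptor whose promoter SREBPs are known to act on in liver, did not show a difference. Its log2 intensity was 9.76, 9.87 and 9.57 in WT and 9.68, 9.84 and 9.71 in KO, with means of 9.73 ± 0.15 and 9.74 ± 0.09 (SD, n = 3). All KO arrays fell within the WT range, and the log2 fold change was 0.01 (95% interval -0.29 to 0.31, limma adjusted p = 0.996). Its sign turned with the arrays brought to 1 median (-0.04), so no direction can be given.

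Within each array Irs2 was compared with Irs1, a difference that a constant factor per array does not change. Irs2 minus Irs1 on the log2 scale was -0.75, -0.64 and -0.52 in WT and -0.39, -0.20 and -0.41 in KO. Every KO array lay above every WT array, with a mean difference of 0.31 (exact two-sided permutation p = 0.1, which is the smallest that 3 arrays against 3 can give; adjusted p = 0.4 over the 4 pairs compared). With the mean of the probe sets of a gene in place of the brighter one the difference was 0.20 and the exact permutation p was 0.3.

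**Figure D3:**
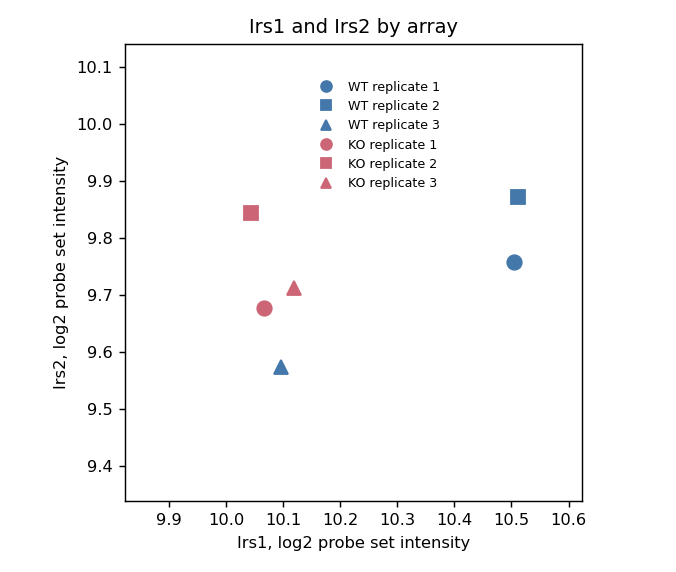
Irs1 (horizontal axis) against Irs2 (vertical axis), both as log2 probe set intensity, on each of the 6 arrays, with equal axis scales. WT replicates 1 and 2 lie to the right at 10.50 and 10.51 for Irs1, and WT replicate 3 is the lowest for Irs2 at 9.57.

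The other 3 pairs overlapped. Igf1 minus Igf2 differed by 0.17 between KO and WT (exact two-sided permutation p = 0.8), and this turned to -0.21 without WT replicate 1 and to -0.28 without KO replicate 2. Igf1r minus Insr differed by 0.16 (exact permutation p = 0.5). With 1 array left out it ran from 0.06 without WT replicate 1 to 0.32 without WT replicate 2, and it was 0.10 without WT replicate 3 and 0.09 without KO replicate 3. Akt2 minus Akt1 differed by -0.14 (exact permutation p = 0.4), and by -0.05 without WT replicate 1, -0.07 without KO replicate 3 and -0.23 without WT replicate 2 (exact permutation p = 0.1, the smallest possible there).

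Below the adaptors, Pik3r1, which encodes the p85α subunit of phosphoinositide 3-kinase, was bright on all arrays. It stood at 12.07, 12.56 and 12.43 in WT and at 12.38, 12.46 and 12.54 in KO. WT replicate 1 was low and all KO arrays fell within the WT range. For Pik3r1 the log2 fold change was 0.11 (95% interval -0.26 to 0.47), and it was -0.04 without WT replicate 1.

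Akt1, the AKT kinase known for its part in growth, was the steadiest of the 10 genes. It stood at 10.04, 10.12 and 10.12 in WT and at 10.14, 10.12 and 10.14 in KO, an SD of 0.04 over all 6 arrays. Its fold change was 0.04 on the log2 scale (95% interval -0.21 to 0.29), and -0.01 with the arrays brought to 1 median. Akt2, the form known for insulin action on glucose, stood at 10.79, 10.52 and 10.70 in WT and at 10.66, 10.62 and 10.43 in KO. The highest Akt2 value was that of WT replicate 1 and the lowest that of KO replicate 3, and the other 4 arrays overlapped. Akt2 had a log2 fold change of -0.10 (95% interval -0.41 to 0.21), which was -0.03 without KO replicate 3, -0.04 without WT replicate 1 and -0.18 without WT replicate 2.

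Foxo1, the transcription factor that AKT inactivates, had the largest rise in mean among the 10. Its log2 intensity was 9.77, 10.28 and 10.43 in WT and 10.44, 10.67 and 10.24 in KO, with means of 10.16 ± 0.35 and 10.45 ± 0.21 (SD, n = 3). WT replicate 1 was the lowest and KO replicate 2 the highest, while KO replicate 3 lay below WT replicates 2 and 3. The log2 fold change was 0.29 (95% interval -0.19 to 0.77, limma adjusted p = 0.892) and fell to 0.10 without WT replicate 1. A dimmer second probe set gave 0.14 ± 0.21 (SE) and was likewise highest on KO replicate 2.

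WT replicate 1 stood at the end of the range in several of these genes. It was the lowest of the 6 arrays for Igf1r, Pik3r1, Akt1 and Foxo1 and the highest for Igf2 and Akt2. These genes were picked out after the values were seen. The share of all genes with this array at an end was not computed, so no trait of the members follows. WT replicate 1 also had the highest skeletal muscle score, 0.79 over 20 genes. The score was -0.91 and -0.19 on the other WT arrays and 0.41, -0.36 and 0.26 on the KO arrays. The summed intensity of the 20 genes was 149800, 57080 and 105300 in WT and 138000, 83200 and 99910 in KO, and none was at 0. With this score as a covariate Foxo1 stood at 0.36, Igf2 at -0.37, Igf1r at 0.12, Pik3r1 at 0.16, Akt1 at 0.05 and Akt2 at -0.12. All of these kept the sign they had without it.

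Genes whose pattern over the arrays was most like that of the 3 most variable members were sought among the brighter 50% of genes. Likeness was the mean absolute difference between centred log2 values over the 6 arrays. For Igf1 they were Mest, an imprinted gene known for its rise in expanding fat, at 0.11, then Tenm4 at 0.12 and Mmd at 0.12. Mest stood at 9.69 on WT replicate 3 and 9.72 on KO replicate 2, against 7.64 to 8.10 on the other arrays. For Igf2 they were Emg1, Lpin2 and Itm2c at 0.07, 0.07 and 0.08. For Foxo1 they were Tns2, Il6ra and Resf1, each at 0.05. Among so many genes some will be this close over 6 arrays by coincidence.

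**Figure D4:**
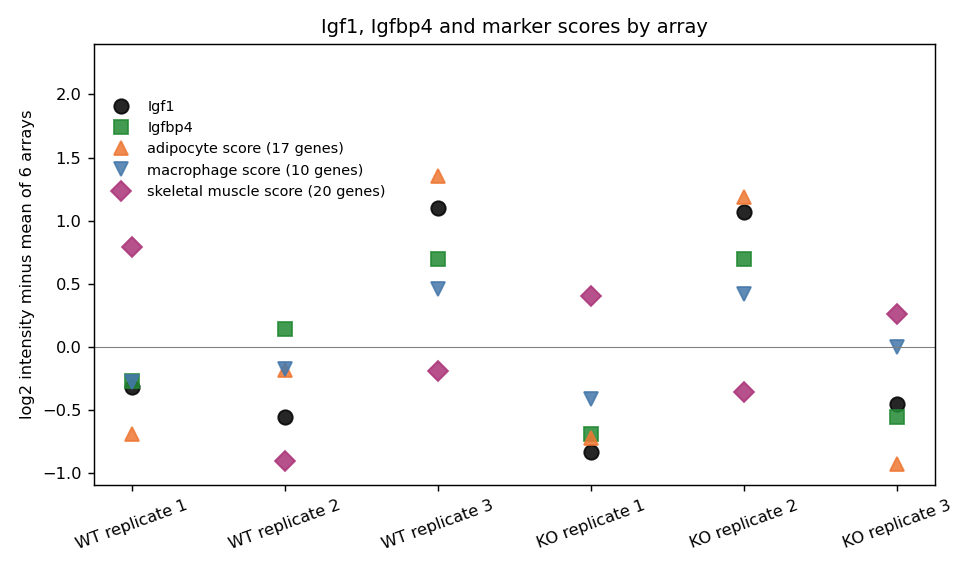
Log2 intensity minus the mean of the 6 arrays (vertical axis) for Igf1, Igfbp4 and the mean scores of adipocyte, macrophage and skeletal muscle genes, on each array. Igf1, Igfbp4 and the adipocyte score (1.35 and 1.19) are highest on WT replicate 3 and KO replicate 2.

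Beyond these 10, 73 of 80 listed genes of the pathway were measured, and 0 of them passed an adjusted p of 0.05 in limma. By the study's criterion on the limma p 1 was higher and 1 was lower, 2 of 73 against the 1.19% of all genes. At an unadjusted p under 0.05 there were 2 higher and 3 lower of 73, against 2.34% and 3.49% of all genes. The mean was lower in KO for 44 of the 73, against 12624 of all 22180 genes, and the median log2 fold change was -0.04, against -0.03. The genotypes did not overlap in 5 genes that were higher and 6 that were lower in KO, against 4.08% and 8.21% of all genes.

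Binding proteins hold IGFs in the extracellular space and set how much reaches the receptor, and PAPP-A, the product of Pappa, cleaves some of them. Of 13 measured ligand, binding protein and protease genes, 0 passed the criterion. Pappa stood at 6.69, 7.19 and 6.96 in WT and at 7.32, 7.61 and 7.33 in KO. All KO values lay above all WT values, with a log2 fold change of 0.47 ± 0.17 (SE, limma adjusted p = 0.85). Igfbp4, whose protein PAPP-A is known to cleave, stood at 10.52, 10.93 and 11.48 in WT and at 10.10, 11.48 and 10.24 in KO, with a log2 fold change of -0.37 ± 0.40 (SE). Igfbp1 had -0.35 ± 0.17 at low intensity and Igfbp3 0.14 ± 0.34.

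Of the 13, 7 were highest on the same 2 arrays as Igf1, namely Igfbp3, Igfbp4, Igfbp6, Igfbp7, Igfals, Pappa2 and Stc2. This count was made after the values were seen. It compares with 1 of the 10 members, 15 of the 73 pathway genes and 9.54% of all genes. The 73 include these 13, so the 15 include the 7. Igfbp5, whose intensity was steady, stood at 12.29 to 12.54 over the 6 arrays.

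Among receptors, adaptors and receptor inhibitors, 0 of 14 passed the criterion. Socs3, a feedback inhibitor of cytokine and insulin receptors, stood at 7.72, 8.26 and 7.84 in WT and at 7.72, 7.27 and 7.47 in KO. The KO values lay below the WT values, KO replicate 1 only just, with a log2 fold change of -0.46 ± 0.19 (SE, limma adjusted p = 0.85), and its dimmer probe set gave -0.30. Irs4 stood at -0.29 ± 0.24. On the other side Cbl, a ubiquitin ligase, stood at 0.20 ± 0.15 and Sos1, which activates Ras, at 0.19 ± 0.11.

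In the phosphoinositide 3-kinase module 8 of 11 genes had a lower mean in KO, against 12624 of all 22180 genes, and the median log2 fold change was -0.15, against -0.03. In this list 1 gene passed the criterion, Pik3r3, which encodes the regulatory subunit p55γ. It stood at 8.77, 8.42 and 8.39 in WT and at 7.61, 8.31 and 7.78 in KO. All KO values lay below all WT values, with KO replicate 2 close to WT replicate 3, and the log2 fold change was -0.63 (SE 0.21, 95% interval -1.12 to -0.13), or 0.648 of WT, with a limma adjusted p = 0.85. Pik3r3 did not pass the criterion with the unmoderated test named in the series or without WT replicate 1, KO replicate 1 or KO replicate 3. Pik3cd, a catalytic subunit known from white blood cells, stood at 8.19, 8.43 and 7.90 in WT and 7.81, 7.73 and 7.73 in KO. Its log2 fold change was -0.42 ± 0.16 (SE), under the fold limit. At the upper end Trib3 stood at 0.16 ± 0.14 and Pdpk1 at 0.05 ± 0.13.

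Among AKT and mTORC1 effectors 0 of 17 passed and the median log2 fold change was -0.03. Slc2a4, the insulin-responsive glucose transporter of muscle and fat, stood at 0.52 ± 0.44 (SE), Foxo6 at 0.15 ± 0.13, Foxo4 at -0.18 ± 0.12 and Mlst8, a subunit of both mTOR complexes, at -0.22 ± 0.12.

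Genes that FoxO factors are known to raise had 10 of 19 means higher and 9 lower in KO, against 9556 of all 22180 genes higher, with a median of 0.04. Of these 1 passed the criterion, Pdk4, a kinase that inhibits pyruvate dehydrogenase and is also a target of PPARs. It stood at 11.57, 11.44 and 11.35 in WT and at 12.96, 11.84 and 12.45 in KO, so all KO values lay above all WT values (0.97 ± 0.27, SE, limma adjusted p = 0.85). The other genes at the ends of the list were Trim63, a muscle ubiquitin ligase, at 0.40 ± 0.50 (SE), and Pck1, which makes phosphoenolpyruvate, at -0.66 ± 0.88, followed by Igfbp1, which is in both lists.

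**Figure D5:**
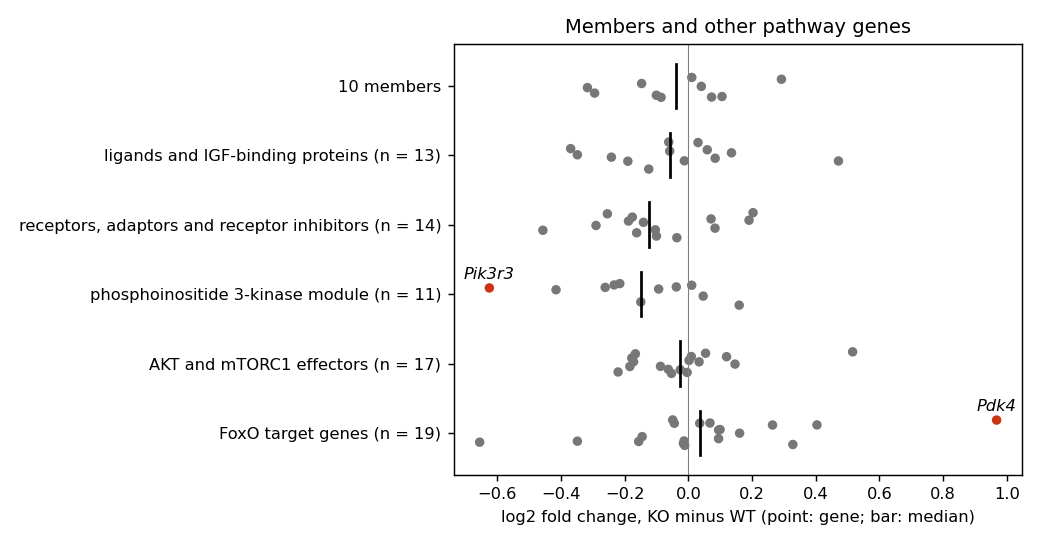
Log2 fold change, KO minus WT (horizontal axis), of the 10 members and of the measured genes of 5 pathway lists. Each point is a gene and the vertical bars are medians. The genes past the study's criterion on the limma p, Pik3r3 and Pdk4, are named and coloured.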

How the data were processed

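RNA from 6 whole sciatic nerve samples (3 WT, 3 Srebf-1c KO) was labelled with an Affymetrix whole-transcript kit, per the labels' protocols. The deposited values are probe set intensity values. TAC and Partek were used, and RMA gave the values, per the authors' design text (background correction, normalization across arrays, summary per probe set). Build mm8 is named in the submitters' processing notes, and no software version is stated. The size of the values shows a linear scale, and log2 was taken with no pseudocount. Groups follow the sample titles and genotype field, although the KO samples carry wild type in another field. No 2 arrays shared more than 0.117% of values.

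Of 41077 probe sets, 23521 carried 1 gene symbol in the platform annotation, and the brightest probe set of a gene by its mean over 6 arrays was kept. All 10 members were matched. The 22180 genes were fitted in limma 3.58.1 (lmFit, eBayes, R 4.3.3), KO minus WT, two-sided, with Benjamini-Hochberg adjustment over all genes. Within-array pairs were compared with exact permutation tests. Promoter windows were matched by symbol, and Python 3.11.15, pandas 2.3.3 and matplotlib 3.10.9 were used for sequences and plots. The fit was tested on simulated data. The members and lists were chosen with earlier results of these data known.

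Named were the 10 members, the 2 highest and 2 lowest genes of each pathway list, genes past the criterion, and, for the 3 most variable members, the 3 genes most alike. Igfbp5, the genes high on the same arrays as Igf1, and those in the last section were chosen after their values were seen. Predicted genes were not named. Alternatives were the methods' ANOVA, a replicate block, array weights, a robust prior with an intensity trend, filters on dim genes, quantile and median scaling, other uses of probe sets, adipocyte and muscle scores as covariates, other limits and leaving out each array.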

Additional observations from a re-analysis of the deposited data

How the results depend on the processing

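The number of members past an adjusted p of 0.05, and past the study's criterion, was 0 in each alternative, and no member came below an adjusted p of 0.624 in any of them. Signs of small differences turned: with the arrays brought to 1 median Irs2 stood at -0.036 and Akt1 at -0.0059, with the adipocyte score as a covariate Igf1 stood at 0.11, and with WT replicate 3 and KO replicate 2 both left out Irs2 stood at -0.12. Leaving out 1 array at a time, the ranges that crossed 0 were -0.15 to 0.029 for Insr, -0.070 to 0.079 for Irs2, -0.72 to 0.37 for Igf1, -0.042 to 0.21 for Igf1r, -0.036 to 0.21 for Pik3r1 and -0.28 to 0.72 for Igf1 minus Igf2. The cause was not tested.

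Srebf1 kept its direction, from -1.57 to -1.47 over the settings on all arrays or with 2 left out and from -1.56 to -1.47 with 1 array left out. It missed an adjusted p of 0.05 with the replicate block (-1.52), the methods' ANOVA (-1.52), the arrays at 1 median (-1.57), every probe set tested (-1.52), the adipocyte score (-1.51), the muscle score (-1.52) and both arrays left out (-1.47), and then 0 genes passed. With 1 array left out 0 to 1 genes passed. The criterion was met by 265 genes, 138 with the methods' ANOVA, 150 and 89 without the dimmest 25% and 50% of genes, 34 at a fold limit of 2, 819 without both arrays, and 231 to 552 with 1 array left out. The split of higher against lower was 142 to 123. It was 122 to 142 with quantile normalization repeated and 101 to 189 with the arrays at 1 median. Of pathway genes 2 met it, 1 (Pdk4) with the methods' ANOVA, 0 at a fold limit of 2, and 1 to 3 with 1 array left out.

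Whether the replicate numbers pair the samples is not known. Deviations of same-numbered arrays correlated at 0.12, 0.01 and -0.23 across genes, and those of differently numbered arrays at -0.26 to 0.28. With so few arrays these values cannot decide it. With the replicate block 0 genes passed an adjusted p of 0.05 and Srebf1 stood at -1.52 (adjusted p = 0.713).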

Other observations

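Values of some insulin-responsive genes of muscle and fat are given here beside the tissue marker scores of the arrays. Slc2a4 stood at 10.56, 8.90 and 10.12 in WT and 10.96, 9.97 and 10.20 in KO, lowest on WT replicate 2, which also had the lowest skeletal muscle score (-0.91). Trim63 stood at 9.59, 7.58 and 8.98 in WT and 9.68, 8.85 and 8.83 in KO, and Fbxo32, the other muscle ubiquitin ligase known as a FoxO target, at 11.34, 10.07 and 10.55 in WT and 11.36, 10.53 and 10.88 in KO. Both were highest on KO replicate 1 and WT replicate 1, the arrays with the 2 highest muscle scores, 0.41 and 0.79. KO replicate 3 had the next highest score, 0.26, and a Trim63 value below that of all arrays but WT replicate 2.

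Pck1 stood at 8.68, 10.45 and 11.34 in WT and 8.98, 11.21 and 8.32 in KO, highest on WT replicate 3 and KO replicate 2, as were the adipocyte genes. Klf15, a FoxO-responsive transcription factor, stood at 8.76, 9.04 and 9.24 in WT and 9.40, 9.38 and 9.25 in KO, where all KO values lay above all WT values by a small margin at WT replicate 3 (log2 fold change 0.33 ± 0.15, SE, limma adjusted p = 0.863). The part of muscle or fat next to the nerve in these values was not tested.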
